A study of Mus musculus with 10 samples.

Results

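The 29 myelin and oligodendrocyte lineage genes examined here were taken by gene symbol from a deposited table of 18464 genes, and all 29 were present, each in 1 row. They comprise 13 genes of the myelin sheath and oligodendrocyte membrane, 5 enzymes of lipid and metabolite handling, the regulator gene Myrf, 5 genes of precursors and early lineage cells, and 5 genes that are also known from other cell types. RNA was sequenced from ventral midbrain tissue holding the SNpc and the VTA, taken from naive Aldh1l1-NuTRAP mice. In this strain Aldh1l1 directs a ribosome tag mostly to astrocytes, and tagged ribosomes are pulled down together with the RNA they carry. The 10 libraries form 2 groups of the same genotype without drug: 5 input libraries of all cell types and 5 libraries of the astrocyte fraction, here called the fraction. The title numbers 88, 92, 976, 981 and 982 are each carried by 1 input and 1 fraction library. Whether a number stands for 1 animal is not said in the labels, so the p-values cover only spread between these libraries, which may be technical.

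Oligodendrocytes wrap axons in myelin, a stack of membrane rich in galactolipids and in a few abundant proteins. They arise from precursor cells, and the transcription factors Olig1, Olig2 and Sox10 precede Myrf, which switches on the myelin genes. Some of their mRNAs, Mbp and Mobp among them, are carried out to the sheath and translated there. The question here is how much of each of these transcripts remained in the astrocyte fraction, and which stayed high.

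Expected counts per library totalled 21812193 to 30878894 in the input and 24479136 to 26924406 in 4 fraction libraries, but 3845554 in the fraction library 92, so low genes are least precise there. Aldh1l1, the driver gene, was at 88.1 to 108 CPM in the input and 672 to 899 CPM in the fraction, and all 15 astrocyte markers checked were higher there. The fraction libraries 976 and 982 and their inputs stood apart through the choroid plexus marker Ttr, at 604 to 11033 CPM against 0.334 to 11.5 CPM in the other libraries. CPM is the count of a gene relative to library depth after TMM scaling, and percent retained is the mean CPM of the 5 fraction libraries divided by that of the 5 input libraries.

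Most of the myelin genes were depleted to a small part of their input level. By group means, Cnp, Cryab, Sirt2 and Enpp2 stayed above 50% of theirs. The Enpp2 mean rests on the numbers 976 and 982 (419% and 296%), with 12.2% to 27.1% in the others. Cnp was below 50% in 976 and 982 (45.5% and 49.7%). Of 29 genes, 26 were lower in the fraction, 2 were higher (Sirt2 and Cryab) and 1 was not called (Enpp2), by edgeR's quasi-likelihood test at an adjusted p under 0.05. Among all 17672 tested genes 37.5% were lower and 33.1% higher by the same rule. The median gene of the 29 retained 10.3% of its input level, with a median log2 fold change of -3.24, against 95.9% and -0.06 over all tested genes. Percent retained ran from 4.44% for Opalin to 297% for Enpp2. There were 14 genes under 10%, 6 between 10% and 15%, 5 between 15% and 50%, 1 between 50% and 100% (Cnp) and 3 above 100% (Cryab, Sirt2 and Enpp2). The 2 groups of 5 libraries did not overlap for 25 genes that were lower and 1 that was higher, where 31.1% and 27.2% of all tested genes separate in those directions. Bulk RNA cannot tell fewer oligodendrocyte ribosomes in the pulldown from less RNA on each. Nor does it show which cells the RNA left in the fraction came from, and this was not tested.

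**Figure D1:**
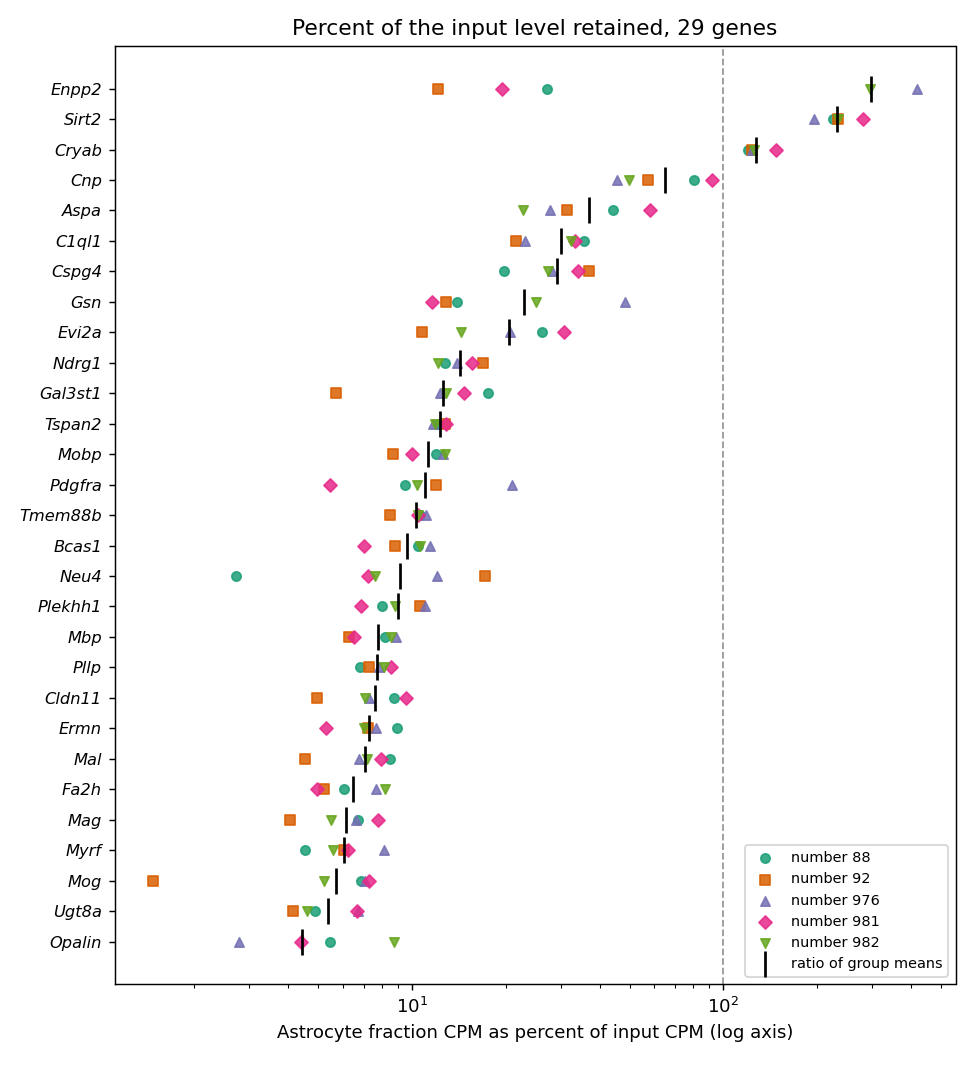
Percent of the input level retained in the fraction for each of the 29 genes (log axis), with 1 point per title number, a black bar for the ratio of group means and a dashed line at 100%. Opalin in number 92, at 0%, lies off the log axis. From Opalin (4.44%) to Tmem88b (10.3%) the points lie far left of the dashed line, while Sirt2 and Cryab are above 100% in all 5 numbers and the Enpp2 points split between 12.2% and 419%.

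Promoter windows were looked up for a sequence feature that the genes might share, since SOX factors such as Sox10 act in this lineage. RefSeq windows (GRCm38.p6) of 300 bases, from 250 before to 50 after the start site, were found for 20 of the 29 genes. For each of these genes the 1 window nearest its annotated start was taken. That of Aspa lay 4959 bases away. The SOX core letters ACAAAG or ACAATG, read on both strands, occurred in 8 of these 20 (40.0%). They occurred in 9394 of all 32851 windows (28.6%), which were not limited to 1 per gene, so the 2 shares are not directly comparable. The windows of 2 depleted genes, Opalin and Mobp, and of 2 genes that stayed high, Cnp and Sirt2, are shown to compare them, on the strand of the gene and with the matches in capitals. Opalin (chr19:41077064-41077363, minus strand) held 2 matches, Mobp (chr9:120149492-120149791, plus strand) 6, Cnp (chr11:100574689-100574988, plus strand) 1 and Sirt2 (chr7:28766502-28766801, plus strand) 1. Matches thus occurred in some depleted and some retained genes, but every window shown was one with a match. The windows of other depleted genes, such as Mog, Cldn11 and Mal, held 0. Of the genes that stayed high, Cryab and Enpp2 had no window, so the 2 kinds of genes cannot be compared. A match is not a binding site.
Opalin: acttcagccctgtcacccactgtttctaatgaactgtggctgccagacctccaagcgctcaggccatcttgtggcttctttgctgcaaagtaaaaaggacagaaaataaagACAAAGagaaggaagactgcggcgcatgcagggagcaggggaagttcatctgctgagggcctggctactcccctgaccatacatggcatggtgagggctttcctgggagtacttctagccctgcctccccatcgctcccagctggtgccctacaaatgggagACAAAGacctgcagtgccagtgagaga
Mobp: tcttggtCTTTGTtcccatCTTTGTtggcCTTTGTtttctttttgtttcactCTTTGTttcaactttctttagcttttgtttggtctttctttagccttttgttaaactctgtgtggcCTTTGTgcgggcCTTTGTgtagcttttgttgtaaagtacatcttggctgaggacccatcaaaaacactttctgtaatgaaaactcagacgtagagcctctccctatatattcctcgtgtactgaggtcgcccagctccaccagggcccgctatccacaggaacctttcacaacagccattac
Cnp: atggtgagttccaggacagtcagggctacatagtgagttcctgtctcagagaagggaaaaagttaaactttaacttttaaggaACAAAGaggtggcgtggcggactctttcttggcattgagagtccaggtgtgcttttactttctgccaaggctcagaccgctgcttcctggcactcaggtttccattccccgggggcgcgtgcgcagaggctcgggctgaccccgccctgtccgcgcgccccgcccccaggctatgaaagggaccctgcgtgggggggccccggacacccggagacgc
Sirt2: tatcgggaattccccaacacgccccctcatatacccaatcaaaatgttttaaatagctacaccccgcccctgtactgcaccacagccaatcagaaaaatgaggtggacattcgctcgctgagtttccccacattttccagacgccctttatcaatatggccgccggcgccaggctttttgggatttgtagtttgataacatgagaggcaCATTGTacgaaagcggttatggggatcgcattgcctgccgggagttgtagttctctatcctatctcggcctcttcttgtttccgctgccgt

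The 13 sheath and membrane genes were all lower, with a median of 7.73% retained. Mbp (ENSMUSG00000041607, mm10 chromosome 18, 82475146 to 82585637), which encodes myelin basic protein, compacts the sheath from its inner face. Its CPM in the inputs 88, 92, 976, 981 and 982 was 2771, 2346, 2749.5, 2404 and 2505, and in the fraction libraries of the same order 227, 147, 245, 156 and 214. Every fraction library lay far below every input, and 7.75% was retained (log2 fold change -3.69 ± 0.16 SE, adjusted p = 3.13e-10). Mobp, a small basic protein gene of compact myelin, kept somewhat more, 11.2%, with 835 to 1097 CPM in the input and 72.5 to 131 CPM in the fraction. Mog (chromosome 17, 37010743 to 37023398), the gene of a glycoprotein on the outer face of the sheath, went from 96.9, 79.8, 93.9, 85.9 and 94.3 CPM in the input to 6.65, 1.17, 6.62, 6.24 and 4.93 CPM in the fraction. Its low value of 1.17 CPM rests on 4 counts in the shallow fraction library 92. Mag, which encodes an adhesion glycoprotein facing the axon, retained 6.13% (399 ± 39.5 to 24.4 ± 5.81 CPM, SD, n = 5). Opalin (chromosome 19, 41062474 to 41077113), a membrane glycoprotein gene of mature oligodendrocytes, was lowest of the 29, at 18.9 to 31.6 CPM in the input and 1.55, 0, 0.877, 1.03 and 2.21 CPM in the fraction. The count of 0 in the fraction library 92 allows up to 0.880 CPM there.

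The other sheath genes retained similar shares, with Cnp and Evi2a as exceptions. Mal and Pllp, which encode related proteolipids of myelin membrane, retained 7.05% and 7.73%. Cldn11, the claudin of myelin tight junctions, retained 7.60%, and Ermn, a gene of the oligodendrocyte cytoskeleton, 7.27%. The tetraspanin gene Tspan2 retained 12.3% with little spread, 11.7% to 12.9% over the 5 numbers, and the membrane protein gene Tmem88b 10.3%. Evi2a, a membrane protein gene inside an intron of Nf1, was at 26.1 to 34.3 CPM in the input and 8.65, 2.93, 7.10, 7.99 and 4.61 CPM in the fraction, or 20.5%. Evi2a shares 19.2% of its exon bases with Evi2 on the same strand, and 54.2% of the exon bases of Pllp lie opposite another gene model, so the counts of both are uncertain.

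Cnp stayed far above the other sheath genes. Cnp (ENSMUSG00000006782, chromosome 11, 100574904 to 100591729) encodes the phosphodiesterase that keeps cytoplasmic channels open within myelin. It was at 614, 513, 605, 573 and 614 CPM in the input and at 495, 294, 275, 526 and 305 CPM in the fraction. The fraction libraries 88 and 981 were close to their inputs, at 80.7% and 91.8%, whereas 92, 976 and 982 retained 57.3%, 45.5% and 49.7%, and the groups overlapped. Over all 5 numbers 64.9% was retained (log2 fold change -0.62 ± 0.21 SE, adjusted p = 0.00819 by edgeR). The numbers 976 and 982, which carry the choroid plexus transcripts, also had the lowest Cnp shares. Without them, and with the remaining libraries scaled anew, the share was 83.4%. On these fewer libraries the gene was no longer called (adjusted p = 0.271).

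**Figure D2:**
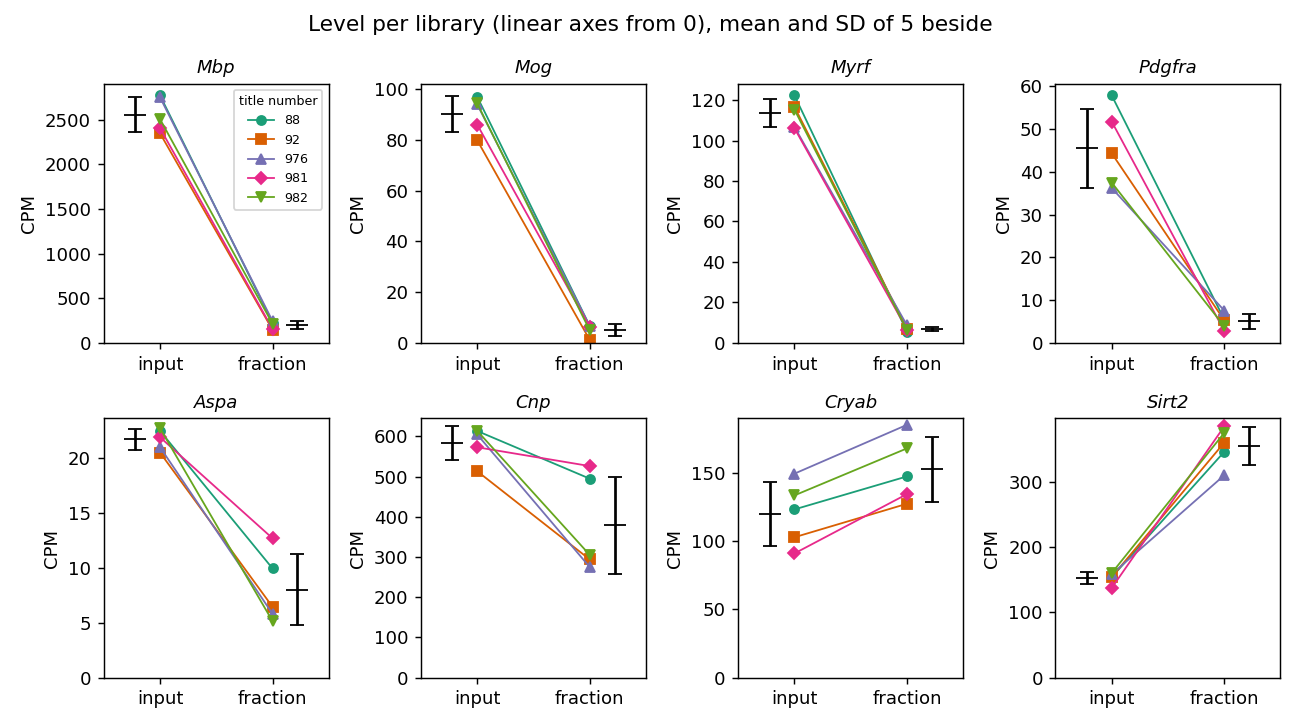
CPM of 8 genes in the input and fraction library of each title number (joined points, linear axes from 0), with the mean and SD of 5 libraries beside each group. Mbp, Mog, Myrf and Pdgfra are far lower in every fraction library, with Pdgfra at 5.45% to 20.9% of its input. Aspa and Cnp fall by different amounts in different numbers, and Cryab and Sirt2 are higher in the fraction in all 5 numbers.

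Among the 5 enzymes, those that build the galactolipids of the sheath were depleted most. Ugt8a (chromosome 3, 125865271 to 125938619), which adds galactose to ceramide, was at 70.7 to 78.7 CPM in the input and 3.83, 2.93, 4.98, 4.79 and 3.57 CPM in the fraction, or 5.39%. Fa2h, which hydroxylates their fatty acids, retained 6.47%. Gal3st1, which adds the sulfate of sulfatide, retained 12.6%, from 21.7 ± 3.08 to 2.74 ± 0.984 CPM (SD, n = 5). Aspa (chromosome 11, 73304992 to 73329596) encodes the enzyme that cleaves N-acetylaspartate, a source of acetate for myelin lipid. It stayed higher, at 22.5, 20.5, 21.002, 21.9 and 22.7 CPM in the input and 9.95, 6.45, 5.82, 12.7 and 5.15 CPM in the fraction. Aspa retained 36.9% (log2 fold change -1.41 ± 0.25 SE, adjusted p = 7.37e-05), with its highest values, like those of Cnp, in the fraction libraries 88 and 981.

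Enpp2 took its high mean from the numbers 976 and 982. Enpp2 (chromosome 15, 54838901 to 54952892) encodes autotaxin, the secreted enzyme that makes lysophosphatidic acid, and is known from oligodendrocytes and from the choroid plexus. In the input it was at 255, 239, 1681, 244 and 482 CPM in the order 88, 92, 976, 981 and 982, and in the fraction at 69.2, 29.04, 7052, 47.6 and 1430 CPM. In 88, 92 and 981 it was therefore lower in the fraction, with 27.1%, 12.2% and 19.5% retained, and in 976 and 982 higher, at 419% and 296%. Ttr, the transthyretin gene of the choroid plexus, followed the same libraries, at 1.40, 0.334, 2965, 2.70 and 604 CPM in the input and 2.77, 2.93, 11033, 11.5 and 2311 CPM in the fraction. The 8 choroid plexus markers measured summed to 691 and 3345 CPM in the inputs 982 and 976 and to 27.4 to 40.6 CPM in the other inputs. In the fraction their sum was 2711 and 13013 CPM in 982 and 976 and 103 to 110 CPM in the others. Of these 8 markers, 1 (Otx2) was called higher and 7 were not called. Over all libraries the Enpp2 log2 fold change was 1.57 ± 1.64 (SE, adjusted p = 0.381 by edgeR), which turned to -0.71 when the title number entered as a block (adjusted p = 0.625) and to -0.45 without the fraction library 976 (adjusted p = 0.781). Without the numbers 976 and 982 it was lower, at 21.3% retained (log2 fold change -2.18, adjusted p = 0.000143). In the fraction library 976, Enpp2 made up 83.4% of the summed CPM of the 29 genes, and in the fraction libraries 88, 92 and 981 it made up 2.37% to 4.10%.

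**Figure D3:**
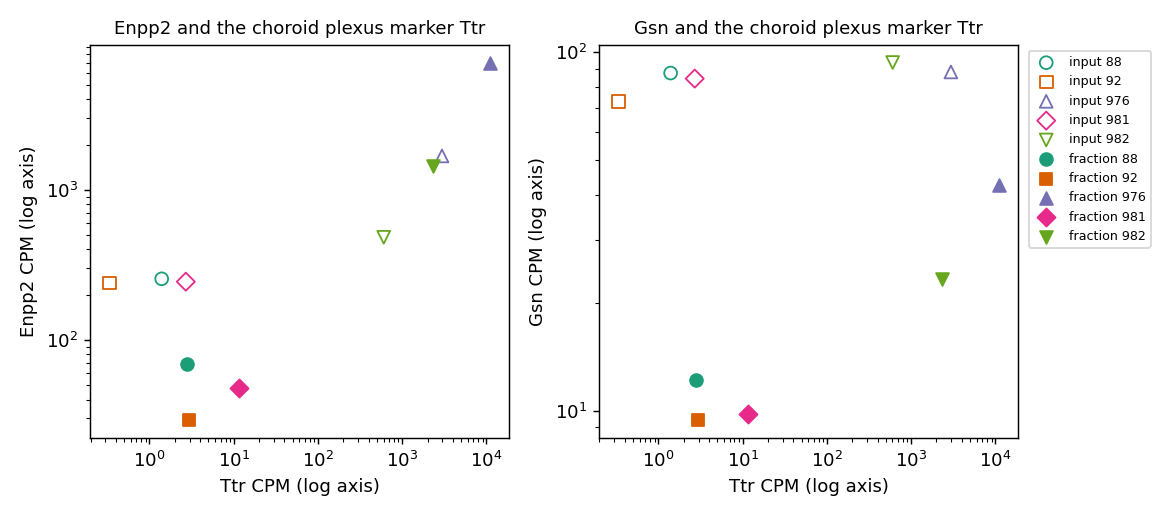
CPM of Enpp2 (left) and Gsn (right) against CPM of the choroid plexus marker Ttr in the 10 libraries, on log axes, with open symbols for input and filled symbols for the fraction. Enpp2 is highest in the 4 libraries of the numbers 976 and 982, where Ttr is at 604 to 11033 CPM, and Gsn is above 20 CPM in the fraction in those numbers alone.

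Myrf, the regulator of myelin genes, was among the most depleted. Myrf (chromosome 19, 10208272 to 10240748) was at 122, 117, 107, 106 and 115 CPM in the input and 5.55, 7.04, 8.69, 6.63 and 6.42 CPM in the fraction. The groups were far apart in every number, and 6.05% was retained (log2 fold change -4.03 ± 0.11 SE, adjusted p = 5.16e-11).

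The 5 precursor and early lineage genes were all lower and fell into a strongly and a less depleted set. Pdgfra (chromosome 5, 75152292 to 75198215), the growth factor receptor of precursors, was at 57.9, 44.3, 36.2, 51.8 and 37.5 CPM in the input and 5.51, 5.28, 7.57, 2.82 and 3.89 CPM in the fraction, or 11.0%. The Pdgfra share ranged from 5.45% to 20.9% over the numbers. Neu4, a sialidase gene, retained 9.12%, and Bcas1, which marks oligodendrocytes that are starting to myelinate, 9.65%. The Neu4 share ranged from 2.73% to 17.1% over the numbers, on 8.0 to 43.9 counts per fraction library. Cspg4, the NG2 proteoglycan gene, stayed at 29.2%, with 28.0, 24.5, 18.9, 24.3 and 19.97 CPM in the input and 5.55, 9.09, 5.30, 8.29 and 5.47 CPM in the fraction. C1ql1, a secreted C1q-like protein gene of precursors, stayed at 30.0%, with 21.2 to 39.2 CPM in the input and 4.90 to 14.03 CPM in the fraction. Cspg4 is also known from pericytes. Of 13 mural and fibroblast markers, 9 were lower, 2 higher and 2 not called, with a median of 34.6% retained and a summed level of 182 to 229 CPM in the input and 128 to 203 CPM in the fraction. Their part in the Cspg4 level was not tested.

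The 5 genes also known from other cell types ran from 9.03% to 232% of the input level. Sirt2 (ENSMUSG00000015149, chromosome 7, 28766735 to 28788661), the gene of a deacetylase that acts on tubulin and is abundant in myelin, was at 154, 154, 158, 137 and 160 CPM in the input. In the fraction it was at 346, 360, 309.9, 385 and 375 CPM, above every input, and 232% of the input level was found (log2 fold change 1.22 ± 0.07 SE, adjusted p = 1.15e-08). Cryab (chromosome 9, 50751325 to 50756636), the gene of a small heat shock protein of oligodendrocytes and astrocytes, was at 123, 103, 149, 91.0 and 133 CPM in the input and 147, 127, 185, 134 and 168 CPM in the fraction. Cryab was higher in the fraction in 5 of 5 numbers, with 127% of the input level, but the groups overlapped (log2 fold change 0.35 ± 0.16 SE, adjusted p = 0.0409). That call was lost with libraries scaled to total counts (log2 fold change 0.06, adjusted p = 0.720), which moves the median of all genes from -0.06 to -0.34. It was also lost without any 1 of 5 libraries, the inputs 88, 92 and 981 and the fraction libraries 88 and 982 (adjusted p from 0.0517 to 0.0949). Of the exon bases of Cryab, 17.0% lie opposite Hspb2, so its count is uncertain without strand information.

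Gsn, which encodes an actin-severing protein, retained 22.8%. It was at 73.0 to 93.6 CPM in the input and 12.1, 9.39, 42.7, 9.79 and 23.3 CPM in the fraction. Its 2 highest fraction libraries were again 976 and 982, and without these numbers 13.8% was retained. Whether choroid plexus RNA has a part in Gsn was not tested. Ndrg1, a stress-responsive gene abundant in oligodendrocytes, retained 14.2%, and Plekhh1, a gene of the cytoskeleton, 9.03%, with 14.8% of its exon bases opposite Pigh.

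A further fit asked which genes kept more than mature oligodendrocyte markers do. Libraries were scaled so that the mean log2 level of 11 mature markers (Mog, Mag, Mobp, Cnp, Cldn11, Opalin, Ermn, Mal, Myrf, Ugt8a and Aspa) was equal in all, and edgeR was run on all genes. Values above 0 then mean that more of the input level was kept than by the markers, and the depth scaling drops out. Of the 18 genes outside the marker set, 9 were higher, 1 lower (Fa2h) and 8 not called, where 93.9% of all tested genes were higher and 0.526% lower. Sirt2 stood 4.75 ± 0.21 above the markers on the log2 scale (SE, adjusted p = 1.35e-11) and Cryab 3.86 ± 0.19 (adjusted p = 3.75e-11). The precursor genes Cspg4 (1.69 ± 0.34, adjusted p = 4.96e-05) and C1ql1 (1.68 ± 0.30, adjusted p = 1.38e-05) and the sheath gene Evi2a (1.14 ± 0.14, adjusted p = 4.29e-05) were above as well. These 5 genes were called higher under all 14 alternatives of this fit. Gsn (1.34), Ndrg1 (0.73), Enpp2 (4.98) and Tspan2 (0.46) were higher in the fit but lost the call under 1, 1, 2 and 6 of the alternatives. Enpp2 lost it when the title number entered as a block (2.69, adjusted p = 0.0806) and without the fraction library 976 (2.91, adjusted p = 0.0683). Tspan2 lost it with other markers (0.04), without the inputs 88, 976, 981 or 982, and without the numbers 976 and 982 (0.54, adjusted p = 0.151). Gsn lost it without the numbers 976 and 982 (0.53, adjusted p = 0.166). Ndrg1 lost it with other markers (0.25, adjusted p = 0.117). The lower call of Fa2h (-0.49, adjusted p = 0.0355) was lost without any 1 of 7 libraries, the 5 inputs and the fraction libraries 88 and 981 (adjusted p from 0.0520 to 0.115). It was also lost without the numbers 976 and 982, though the value was further from 0 on these fewer libraries (-0.75, adjusted p = 0.0623). With Cnp and Aspa out of the markers the call was lost too (0.017, adjusted p = 0.939). Mbp (-0.21, adjusted p = 0.295), Pdgfra (0.26, adjusted p = 0.391) and Bcas1 (0.10, adjusted p = 0.631) did not pass the test against the markers. The choice of markers changed this in the same test. Without Cnp and Aspa, Pdgfra (0.78, adjusted p = 0.0212) and Bcas1 (0.63, adjusted p = 0.0115) were higher. With other markers, Mbp (-0.62, adjusted p = 0.000167) and Bcas1 (-0.30, adjusted p = 0.0329) were lower. Mbp was also lower without the fraction library 92 (-0.29, adjusted p = 0.0458).

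The markers differed among themselves too, and their values are given without a test because they set the scale. Cnp lay 2.85 and Aspa 1.99 above their common mean on the log2 scale, Mobp 0.31 above, while Opalin (-0.95), Ugt8a (-0.77) and Mog (-0.69) lay below it. Taking Cnp and Aspa out of the marker set, an alternative chosen after seeing the data, raised the number of genes called higher from 9 to 13 of 18 and left 0 called lower. With 6 other genes of the lineage as markers 7 were higher and 5 lower.

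Levels were compared between genes per kilobase of annotated exon, a length that counts every annotated exon once and exceeds that of a single mRNA. In the input the order of mean CPM per kilobase was led by Mbp (302 ± 23.1, SD, n = 5), Cnp (160 ± 11.7), Cldn11 (138 ± 14.2) and Mobp (137 ± 15.5), of which the last 2 did not differ beyond their spread. In the fraction the order was Enpp2 (299 ± 526), Cnp (104 ± 33.3), Cryab (103 ± 16.2), Sirt2 (70.5 ± 5.80) and Mbp (23.4 ± 5.14). Cnp and Cryab did not differ there beyond their spread, and the place of Enpp2 rests on the numbers 976 and 982. Among all tested genes Mbp went from percentile 99.6 in the input to 86.4 in the fraction, whereas Cnp went from 99.1 to 97.5 and Sirt2 from 91.3 to 95.9. Opalin went from percentile 69.8 to 14.5.

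**Figure D4:**
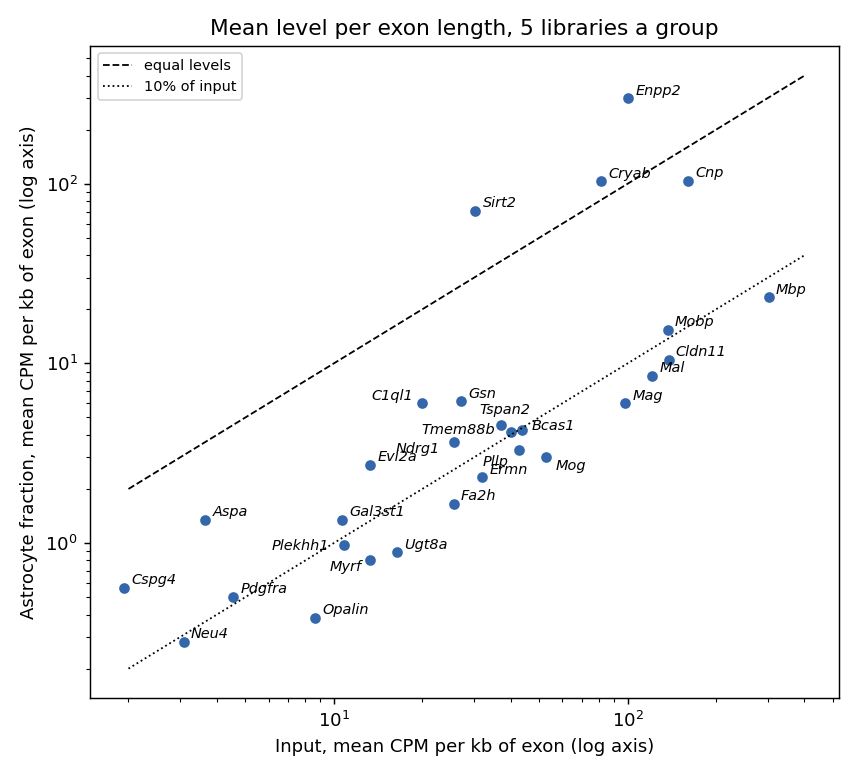
Mean CPM per kilobase of exon in the input (x axis) and the fraction (y axis) for the 29 genes, on log axes, with a dashed line for equal levels and a dotted line at 10% of the input. Most genes follow the dotted line over the whole range of input levels, and Enpp2, Sirt2, Cryab and Cnp lie near or above the dashed line.

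A wider list of 50 other genes of the lineage was more divided. Of these, 33 were lower, 13 higher and 4 not called, with a median of 26.03% retained. The lowest log2 fold changes were those of the protease gene Klk6 (-3.99, 5.04% retained), the connexin gene Gjb1 (-3.97, 5.49%) and the link protein gene Hapln2 (-3.96, 6.76%). In the shallow fraction library 92, Klk6 had 0 counts and Gjb1 had 1. With SE of 0.81 and 0.58, their order is not settled. Sox10 retained 8.67%, and the precursor genes Vcan and Gpr17 6.90% and 11.2%. The 13 higher genes included transcription factors of the lineage, Olig1 (299% of the input level), Olig2 (182%), Nkx2-2 (259%), Nkx6-2 (269%) and Sox8 (268%). The others were Tns3 (537%), Itpr2 (361%), Plekhb1 (331%), Omg (241%), the carbonic anhydrase gene Car2 (186%), Pmp22 (162%), Mpzl1 (149%) and Ttyh2 (123%). Genes also known from other cell types were not set apart in this wider list. Ttyh2 was the weakest of them (log2 fold change 0.30, adjusted p = 0.0347) and was not called with total count scaling (0.01, adjusted p = 0.948). Its call was also lost without any 1 of 6 libraries, the inputs 88, 92 and 981 and the fraction libraries 88, 981 and 982 (adjusted p from 0.0505 to 0.0875).

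Beside the marker lists of other cells, the myelin genes lay between microglia and neurons. The 14 microglia markers were all lower with a median of 4.84% retained, and the 15 pan-neuronal markers were all lower with a median of 20.4%. Of 10 endothelial markers 5 were lower and the other 5 did not pass the test (median 79.3%). The 11 mature oligodendrocyte markers had a median of 7.05%, and by title number their median was 8.47% in 88, 4.96% in 92, 7.26% in 976, 7.80% in 981 and 7.04% in 982. The difference between the lists was not tested.

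**Figure D5:**
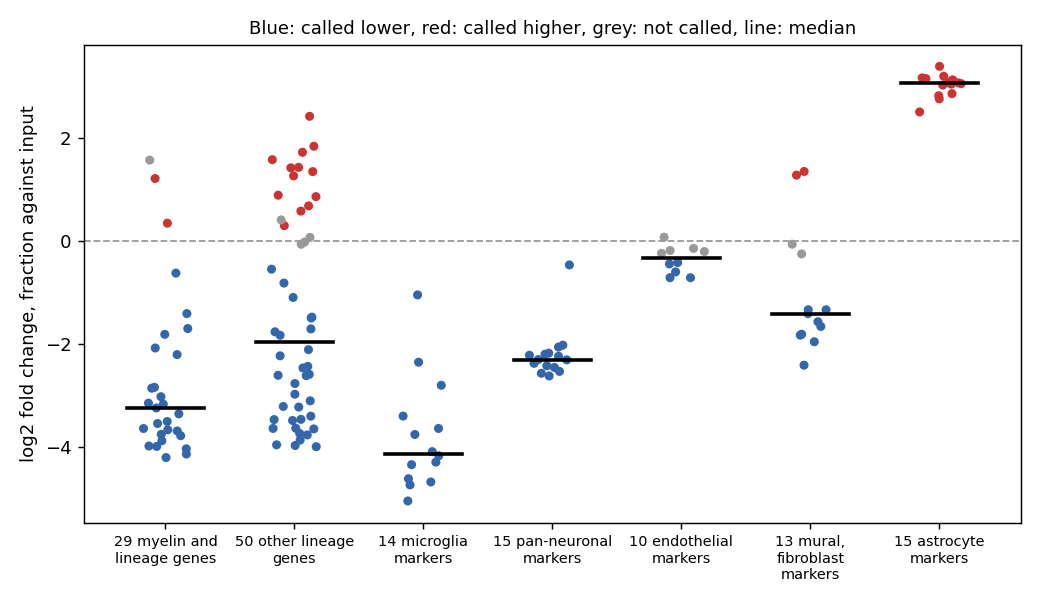
Log2 fold change of fraction against input for the 29 myelin and lineage genes and for 6 other gene lists, 1 point per gene, coloured by the edgeR call, with a line at each median. The 29 genes have a median of -3.24 and reach up to 1.57, microglia markers have a lower median and astrocyte markers are all higher.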

How the data were processed

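RNA of 5 input and 5 astrocyte fraction libraries of the ventral midbrain was measured, with libraries built from 25 ng of total RNA per the labels' protocols. The authors deposited 1 table with expected counts per gene, unscaled, and normalized log2 values that the authors centred on the input. Per the submitters' processing notes, CASAVA 1.8, DESeq and mm10 were used. Tools for alignment and counting, and the use of strand, were not given in the sources used here.

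Expected counts were rounded and tested in R 4.3.3 with edgeR 4.0.16 (TMM, filterByExpr with a minimum count of 10, robust quasi-likelihood test, prior count 2, Benjamini-Hochberg adjustment over 17672 genes). Standard errors come from the log2 CPM of the 5 libraries of each group. The fit against mature markers used the same genes. On simulated counts at these depths, the edgeR test recovered 96% of 100 genes changed by 3 log2 units and 82% of 100 changed by 1, among 17518 genes. The simulation used the same dispersion for every gene. It changed far fewer genes than the 37.5% called lower and 33.1% called higher here. Its rates may therefore not hold for this comparison. Exon lengths and overlaps come from GENCODE M21, which holds 18430 of the identifiers. Matplotlib 3.10.9 drew the plots.

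The members and lists were chosen with earlier results of these data known. All members are named, and of the wider lineage list the genes called higher and those with the 3 lowest and 3 highest log2 fold changes. Sox10, Vcan and Gpr17 were named after their values were seen. Alternatives were DESeq2 1.42.0 and its size factors, total counts, other filters, limma 3.58.1 on the authors' values, the title number as a block, other markers, and leaving out libraries. When libraries were left out, the rest were scaled anew. Percent retained may then differ from the ratio of the CPM values given above. After removal of group means, libraries with the same number correlated at 0.189 to 0.493, against a mean of -0.079 for other pairs. Fraction library 982 correlated more with input 976 (0.302) than with input 982 (0.189). The numbers were used to set libraries side by side, but the main test did not pair them. The title number entered as a block only as an alternative.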

Additional observations from a re-analysis of the deposited data

Results flagged for a closer look

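Of 90 groups of 5 libraries (the 29 genes and 16 other lineage genes in input and fraction), 7 held a library far from its neighbours, where chance gives about 1 in 20. Enpp2 was at 1681 CPM in the input library 976, with the next input at 482 CPM, and at 7052 CPM in the fraction library 976, with the next at 1430 CPM. The choroid plexus marker Ttr was highest in the same 2 libraries of each group, and its part in the Enpp2 level was not tested. Sirt2 was lowest in the input library 981, at 137 CPM against 154 CPM in the nearest. Ndrg1 was highest in the fraction library 92, at 31.7 CPM against 22.5 CPM, on 108 counts. Nkx2-2 was highest in the input library 92 (13.9 CPM), Sox8 in the fraction library 981 (166 CPM) and Olig1 in the fraction library 982 (945 CPM).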

How the results depend on the processing

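The number of the 29 genes called lower was 26 under all 18 alternatives. The number called higher was 1 in place of 2 with total counts, with a filter at a mean of 5 CPM and with limma on the authors' values, and 1 to 2 when each library was left out, the gene lost being Cryab. The median percent retained was 8.43% with total counts against 10.3%, and 9.95% to 11.0% without single libraries. The Enpp2 log2 fold change turned negative with limma on the authors' values (-0.76), with the replicate block (-0.71) and without the numbers 976 and 982 (-2.18), and ran from -0.45 to 2.51 without single libraries. The block changed no call of the 29 genes against the input.

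Against the mature markers, the number called lower was 5 with the other markers, 0 without Cnp and Aspa, 0 without the numbers 976 and 982 and 0 to 3 without single libraries. Without Cnp and Aspa the sign turned for Mbp (0.32), Neu4 (0.36), Fa2h (0.017), Plekhh1 (0.52) and Pllp (0.29). With the other markers it turned for Pdgfra (-0.13), Bcas1 (-0.30) and Tmem88b (-0.19), and without the numbers 976 and 982 for Pdgfra (-0.041). Without single libraries the values crossed 0 for Neu4 (-0.45 to 0.14), Bcas1 (-0.035 to 0.24) and Plekhh1 (-0.28 to 0.11). Genes near the marker mean therefore have no settled side of it, and the cause was not tested. Depth limits Opalin, Mog, Gal3st1 and Neu4 in the fraction library 92, where they had 0 to 8 counts.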

Other observations

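Both inputs 976 and 982 lay below the other 3 inputs for 4 of the 5 precursor and early lineage genes, for 5 of all 29 genes and for 8 of the 50 other lineage genes, a pattern noticed after the values were seen. Both lay above the other 3 inputs for 7 of the 29 genes, 0 of them precursor genes, and for 17 of the 50. How many of all tested genes show either order was not counted, so these counts cannot be called unusual. Among the lower genes, Vcan was at 9.36 and 9.38 CPM in 976 and 982 against 15.6 to 16.1 CPM, Pdgfra at 36.2 and 37.5 CPM against 44.3 to 57.9 CPM, C1ql1 at 21.2 and 23.2 CPM against 29.9 to 39.2 CPM, and Cspg4 at 18.9 and 19.97 CPM against 24.3 to 28.0 CPM. The precursor gene Neu4 did not show that order, at 14.6 and 11.3 CPM in these inputs against 13.7 to 16.5 CPM. Genes outside the precursor group showed it too, among them Plekhh1 (65.5 and 69.4 CPM against 71.9 to 80.2 CPM) and Hapln2 (59.9 and 57.1 CPM against 62.7 to 70.8 CPM). The inputs 976 and 982 also held the choroid plexus marker Ttr at 2965 and 604 CPM. Its part in this order was not tested.

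Cnp, Aspa, C1ql1, Evi2a, Cldn11 and Tspan2 had their 2 highest fraction libraries in 88 and 981, while Enpp2, Gsn, Cryab, Fa2h and Tmem88b had them in 976 and 982. The fraction library 92 was the lowest for 16 of the 29 genes. These orders were not counted over all tested genes either.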
